A study of Mus musculus with 4 samples.

Results

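The respiratory chain of the inner mitochondrial membrane was followed through its nuclear-encoded subunit genes in embryonic mouse kidneys with and without Wnt4. Members were the genes whose whole symbol in the array's annotation is Ndufa, Ndufb, Ndufc, Ndufs or Ndufv and a number, Sdha to Sdhd, or Uqcr or Cox4 to Cox8 with any further letters and digits, and whose probe sets (groups of short probes for 1 transcript) are assigned to a single gene. The rule found 63 of the 18193 genes with such a probe set and 132 of the 45101 probe sets. By symbol, 34 genes belong to complex I, 4 to complex II, 8 to complex III and 17 to complex IV. Whole kidneys of mouse embryos at E14.5, Theiler stage 22, were measured on 4 Affymetrix Mouse430_2 arrays. The 2 wild-type arrays are labelled strain CD-1, and each held RNA pooled from 2 kidneys. The 2 mutant arrays carry the germline null allele Wnt4tm1Amc, are labelled strain 129, and each held RNA pooled from 12 kidneys. The protocol text, identical for all 4, speaks of CD-1 matings throughout. Effects of the genotype, of the labelled strain and of the pool size therefore cannot be told apart. Whether the 2 pools of a group were of different litters is unstated, and the p-values cover only the spread between the pools, which may be technical. The labels state the purpose as finding genes of the renal vesicle (the earliest epithelium of a nephron) and of later nephron stages, since none of these forms without Wnt4.

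The respiratory chain passes electrons from NADH and succinate to oxygen and pumps protons as it does so. Complex I (NADH dehydrogenase, Nduf genes) and complex II (succinate dehydrogenase, Sdh genes) feed electrons to ubiquinone. Complex III (the cytochrome bc1 complex, Uqcr genes) hands them to cytochrome c, and complex IV (cytochrome c oxidase, Cox genes) to oxygen. The proton gradient drives the ATP synthase. Apart from complex II, each complex also holds subunits encoded in mitochondrial DNA, which are outside the rule. In the adult kidney the proximal tubule is rich in mitochondria and depends on this pathway for its transport work.

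At the brighter probe set of Wnt4, wild-type signals were 1885 and 1770, and mutant signals were 406 and 272. The groups did not overlap, and Wnt4 was 5.28-fold lower in the mutant (log2 difference -2.40 ± 0.18 (SE), limma adjusted p = 0.000196). The dimmer probe set read 1125 and 846 against 255 and 213, and the place of either one relative to the deletion was not examined. Of 12 genes that define the embryonic kidney 10 were tested, with summed signals of 17286 to 17980 in wild type and 20495 to 21272 in the mutant. Foxd1 and Osr1 rose, and the other 8 did not pass the test. The sums include Foxd1, also listed as a stromal marker, which alone read 2028 and 2393 in wild type and 6938 and 6715 in the mutant. Both mutant arrays lay below for 4 of the 10 (Wt1, Ret, Sall1 and Wnt11) and above for 4. Over all genes these shares were 28.0% and 29.1%. Every value here is the deposited signal, a linear intensity, and every difference is mutant minus wild type on the log2(signal + 16) scale. Tests are limma's moderated test over 27022 probe sets, with Benjamini-Hochberg adjustment and a threshold of 0.05. Each gene is represented by its brightest tested probe set, which gave 13432 genes. Of the 63 member genes, 60 were tested, and Ndufb4, Cox7b2 and Cox8b had no probe set above the filter on low signals.

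Subunit genes of the chain were mostly lower in the kidneys without Wnt4, by a modest amount. Of the 60 tested, 14 fell, 1 rose and 45 did not pass the test. The 14 include Uqcr10, which rose at a dimmer probe set. Among all tested genes 5.82% fell and 6.70% rose. The members' median log2 difference was -0.25, a change of -16.2%, against 0.00 over all genes. The difference was below 0 for 54 members, where 50.0% of all genes were below 0. Both mutant arrays read below both wild-type arrays for 45 members, the groups overlapped for 12, and both mutant arrays read above for 3. Over all genes 28.0% had both mutant arrays below and 29.1% had both above. The array medians, relative to the wild-type mean of each gene, were -0.24 and -0.25 on mutant replicates 1 and 2, so both mutant arrays shared the difference. Complex III had the lowest median, at -0.43, followed by complex II at -0.30, complex IV at -0.27 and complex I at -0.21. The places of complexes IV and I depended on the scaling: quantile normalization gave -0.09 for complex IV and -0.18 for complex I, and cyclic loess, added after seeing the data, gave -0.16 for both. These medians are descriptions, and the differences between complexes were not tested.

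**Figure D1:**
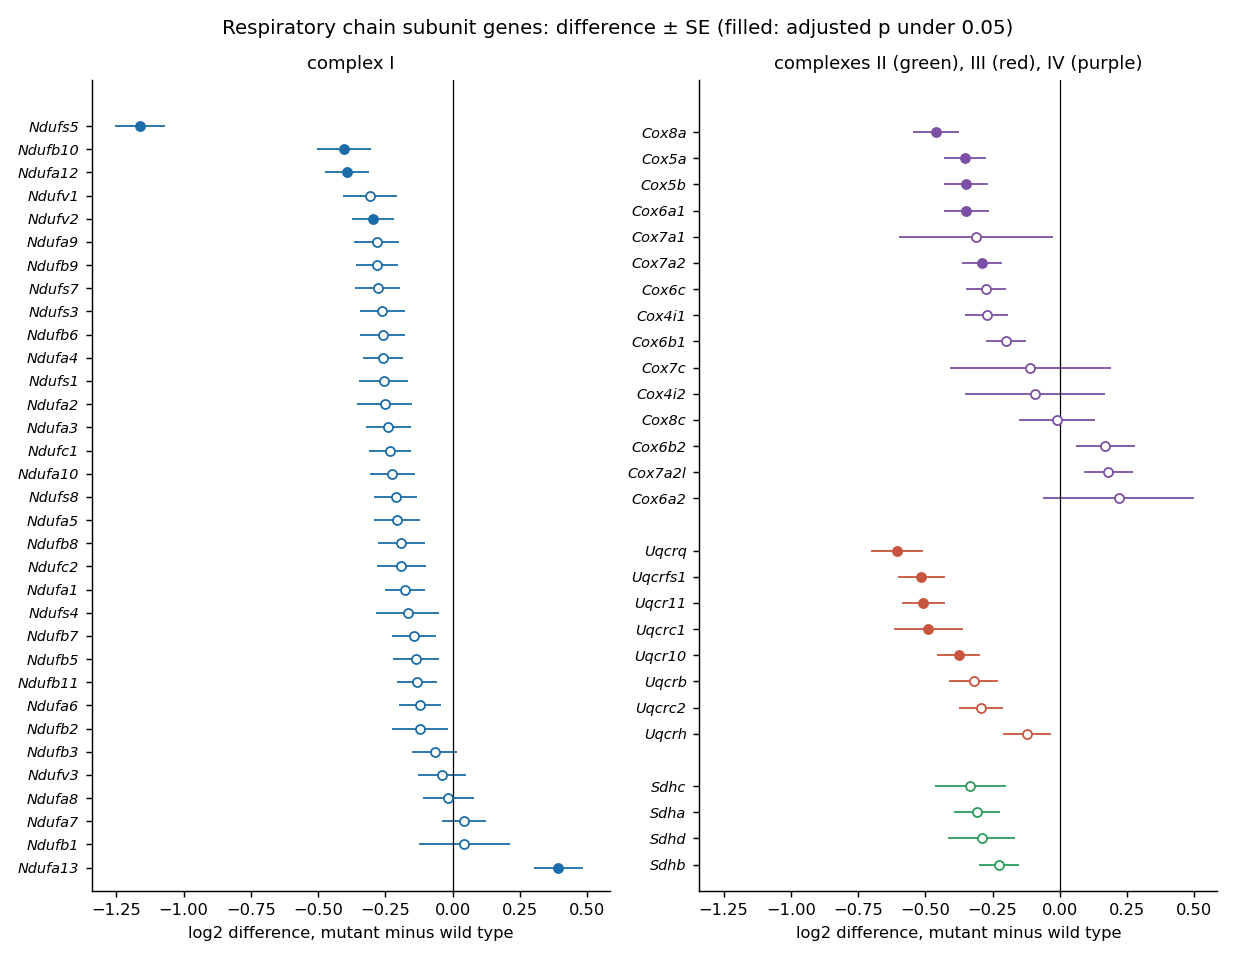
Log2 difference, mutant minus wild type, of each tested respiratory chain gene (points, with lines for ± SE), complex I on the left and complexes II (green), III (red) and IV (purple) on the right, filled where past the limma threshold. Most points lie below 0, from -1.16 for Ndufs5 to 0.39 for Ndufa13, and the complex medians run from -0.43 in complex III to -0.21 in complex I.

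The members are bright genes, and the brightest genes of the array in general read lower on the mutant arrays. Of the 60 members, 48 were in the brightest 10% of genes, at a signal of at least 2872. Among the genes this bright 8.78% fell, 7.66% rose, the median difference was -0.06, and 43.9% had both mutant arrays below. Of the 48 members there, 12 fell, 1 rose, 41 had both mutant arrays below, and the median was -0.26. Between mean log2 levels of 11 and 12 the median was -0.28 for 15 members and 0.01 for 1321 other genes. Between 12 and 13 it was -0.23 for 29 members and -0.04 for 532 other genes. Between signals of 8176 and 11569 it was -0.35 for 3 members, all of complex IV, and -0.11 for 128 other genes. Above that it was -0.31 for 6 members and -0.22 for 110 other genes, of which 93.6% were below 0. In each of these ranges the members' median was below that of the other genes. The gap was smallest at the top, where 5 of the 6 members belong to complex IV.

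**Figure D2:**
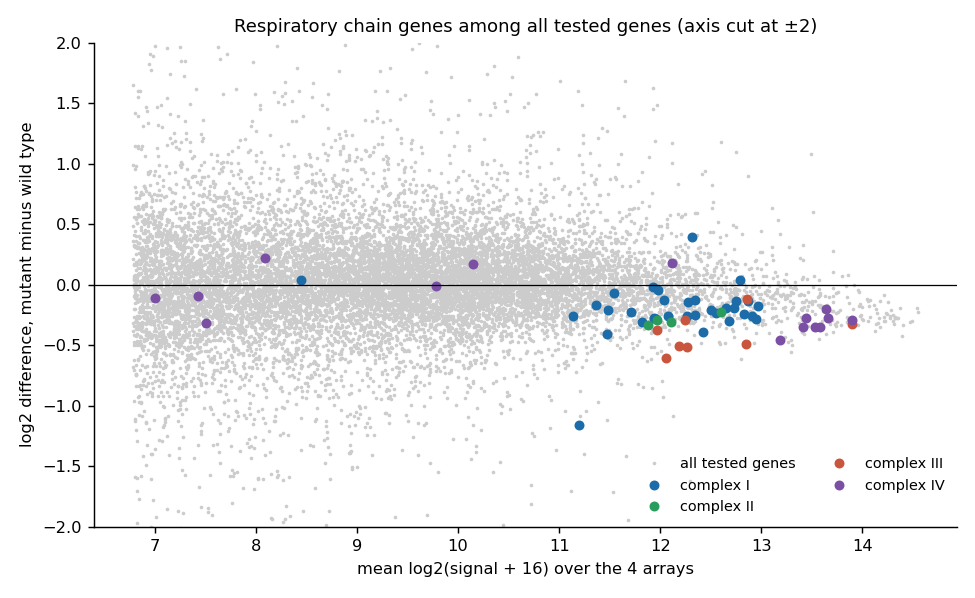
Log2 difference, mutant minus wild type, against mean log2(signal + 16) over the 4 arrays, with all tested genes in the background and the respiratory chain genes coloured by complex; background points beyond ±2 are not shown. The background drifts below 0 at the right, reaching a median of -0.22 for other genes above a signal of 11569. Of the 6 members there 5 belong to complex IV, and 3 more complex IV genes lie between 8176 and 11569. Most other members lie between mean log2 levels of 11 and 13.

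How many members passed the test depended on single arrays and on the scaling. Without mutant replicate 2 only Ndufs5 was still called, and without mutant replicate 1 there were 4 calls. Without wild-type replicate 2 there were 23. With quantile normalization, or with cyclic loess, 9 of the 15 calls were kept. The number of members below 0 was less variable, at 46 to 56 over all alternatives, which tested 57 to 63 members.

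Signs of other cell types differed between the groups as well. The sums given cover every listed gene on the array, those below the filter included. Of 19 tested proximal tubule markers 15 fell, with a summed signal of 12285 and 13205 in wild type and 1904 and 2098 in the mutant. Of 13 tested skeletal muscle markers 9 rose (sums of 2357 to 3575 against 10200 to 10337), and 3 of 6 erythroid markers rose (10596 to 10598 against 23131 to 24200). Stromal markers rose in 5 of 9 (45095 to 48746 against 62427 to 62545), and endothelial markers fell in 4 of 8 (10468 to 10860 against 7630 to 7803). Of 8 adrenal markers on the array only 4 were tested and 2 of those fell, with sums of 1997 to 2126 against 1514 on each mutant array. Their defining gene Nr5a1 was below the filter, as was the brown fat gene Ucp1. None of 9 macrophage markers passed limma's adjusted test, and 2 were lower at an unadjusted p under 0.05, where 13.8% of all genes were lower and 14.6% higher. The part of these markers' cells in the respiratory chain result was not tested. In whole-organ RNA, fewer cells of a type and less RNA per cell cannot be told apart.

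Promoters were examined for 2 motifs because members moved together. NRF-1, a regulator of many respiratory genes, binds GC-rich sites searched here as GCGCAN followed directly by GCGC, where N is any base, on either strand. Factors of the ETS family, among them the respiratory regulator GABP, bind sites searched as CCGGAAG, or CTTCCGG on the other strand. The motifs do not overlap each other in the windows shown. In the 250 bases before the start of the RefSeq transcripts (GRCm38.p6), 53 windows covered 51 of the 63 member genes. The NRF-1 letters occurred in 8 member windows (15.1%) and in 3.74% of all 32851 windows, and the ETS letters in 8 member windows (15.1%) and 6.91% of all. Member windows were richer in G and C, with a median of 56.4% against 52.4%. By gene, NRF-1 matches lay before Cox6a1, Ndufa5, Ndufa8, Ndufb4, Ndufs5, Sdha and Sdhd, and ETS matches before Cox6a1, Cox6b1, Ndufb6, Ndufb7, Ndufs3, Sdhd, Uqcr11 and Uqcrh, so most members with a match were not called. Of 13 genes that fell and had a window, 2 held the NRF-1 letters and 2 the ETS letters. Among all 51 member genes with a window these counts were 7 and 8, and a link between match and fall was not tested. Either motif was held by 3 of the 13, and those 3 windows are shown 5′ to 3′ with the matching letters in capitals. All 3 lie on the minus strand. That of Cox6a1 (chr5:115348959-115349208) matches NRF-1 at 162 and 117 and ETS at 16 bases before the start. That of Ndufs5 (chr4:123718187-123718436) matches NRF-1 at 98, and that of Uqcr11 (chr10:80406822-80407071) matches ETS at 66.
Cox6a1: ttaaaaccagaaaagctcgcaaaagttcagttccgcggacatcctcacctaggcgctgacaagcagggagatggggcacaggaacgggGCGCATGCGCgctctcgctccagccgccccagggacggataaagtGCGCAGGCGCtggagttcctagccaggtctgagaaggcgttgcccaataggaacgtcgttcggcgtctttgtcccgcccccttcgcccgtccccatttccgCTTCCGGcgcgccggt
Ndufs5: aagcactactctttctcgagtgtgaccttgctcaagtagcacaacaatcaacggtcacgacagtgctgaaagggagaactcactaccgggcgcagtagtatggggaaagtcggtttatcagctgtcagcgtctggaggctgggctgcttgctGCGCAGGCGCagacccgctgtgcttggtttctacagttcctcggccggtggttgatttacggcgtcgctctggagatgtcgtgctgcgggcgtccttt
Uqcr11: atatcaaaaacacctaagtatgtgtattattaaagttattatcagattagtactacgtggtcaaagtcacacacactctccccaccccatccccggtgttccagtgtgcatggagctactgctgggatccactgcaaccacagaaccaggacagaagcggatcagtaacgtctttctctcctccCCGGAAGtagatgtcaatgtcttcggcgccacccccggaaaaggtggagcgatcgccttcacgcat
A match describes the letters and shows no binding. The windows of the other 10 genes that fell lack these exact letters, which says nothing of the factors.

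In complex I, the entry point of electrons from NADH, 4 of the 33 tested genes fell and 1 rose. The median difference was -0.21, 30 genes were below 0, and 26 had both mutant arrays below. Among all tested genes 5.82% fell, 6.70% rose, 50.0% were below 0 and 28.0% had both mutant arrays below. Of the 33 complex I genes, 27 had a signal of at least 2872. Among all genes this bright 8.78% fell, 7.66% rose and 43.9% had both mutant arrays below. Ndufs5, an accessory subunit on the intermembrane side, read 3499 and 3484 in wild type and 1478 and 1630 in the mutant. The mutant arrays were far below, with means of 3492 ± 10.8 (SD, n = 2) and 1554 ± 108 (n = 2). Ndufs5 fell 2.24-fold (log2 difference -1.16 ± 0.09 (SE), limma adjusted p = 0.000253), the furthest of all members, and was called under each of the 16 alternatives tried. A further probe set, shared by annotation between Ndufs5 and Ndufs5-ps, read 2016 and 2093 against 1270 and 1183 and also fell (log2 difference -0.74, limma adjusted p = 0.00271). Signal of the gene and of its near copy cannot be separated there.

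The other complex I genes that fell did so by less. Ndufb10, another accessory subunit of the membrane arm, read 3073 and 3464 in wild type and 2605 and 2329 in the mutant, without overlap (log2 difference -0.40 ± 0.10, 1.32-fold, limma adjusted p = 0.0400). Ndufa12, an accessory subunit near the base of the peripheral arm, read 6145 and 6453 against 4611 and 4979 (-0.39 ± 0.08, 1.31-fold, limma adjusted p = 0.0213). Both were lower on each mutant array. Ndufv2, an iron-sulfur subunit of the NADH-oxidising module, read 7438 and 7109 against 5988 and 5853 (-0.30 ± 0.08, 1.23-fold, limma adjusted p = 0.0467). It lay just inside the threshold and was called under 6 of the 16 alternatives.

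Ndufv2 is 1 of 6 core subunits among the members, with Ndufv1, Ndufs1, Ndufs3, Ndufs7 and Ndufs8, which belong to the arm that takes electrons from NADH to ubiquinone. At their representing probe sets all 6 had both mutant arrays below, with differences from -0.31 (Ndufv1) to -0.21 (Ndufs8) and a median of -0.27. Only Ndufv2 passed the test. The dimmer probe sets of Ndufv1 went the other way, at 0.17 and 0.19, overlapped between groups and were not called. Ndufs7, which holds the last iron-sulfur cluster before ubiquinone, had a difference of -0.28 (limma adjusted p = 0.0741). The 27 other tested genes of complex I, Ndufa4 counted among them by its symbol alone, varied more. They ranged from -1.16 to 0.39, with a median of -0.19 and 20 with both mutant arrays below. Ndufa8, Ndufv3, Ndufa7 and Ndufb1 were near 0, at -0.02, -0.04, 0.04 and 0.04. In all, the 28 complex I genes that were not called ranged from -0.31 to 0.04. Ndufb4, an accessory subunit of the membrane arm, was below the filter at its own probe set (73.3 and 86.6 against 58.4 and 71.6). The 2 brighter probe sets it shares with Ndufb4b and Ndufb4c had differences of -0.16 and -0.29, neither called.

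Ndufa13, also known as GRIM-19, an accessory subunit needed for complex I assembly, went the other way. It read 4285 and 4610 in wild type and 6193 and 5511.5 in the mutant, with both mutant arrays above. Ndufa13 rose 1.31-fold (log2 difference 0.39 ± 0.09 (SE), limma adjusted p = 0.0305) and was the only member gene called higher by its representing probe set. That single probe set has the ending _s_at, which marks probes shared by several transcripts. The 2 probe sets annotated to both Yjefn3 and Ndufa13 were below the filter. The call was kept under 10 of the 16 alternatives and lost, among others, with either mutant array left out.

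**Figure D3:**
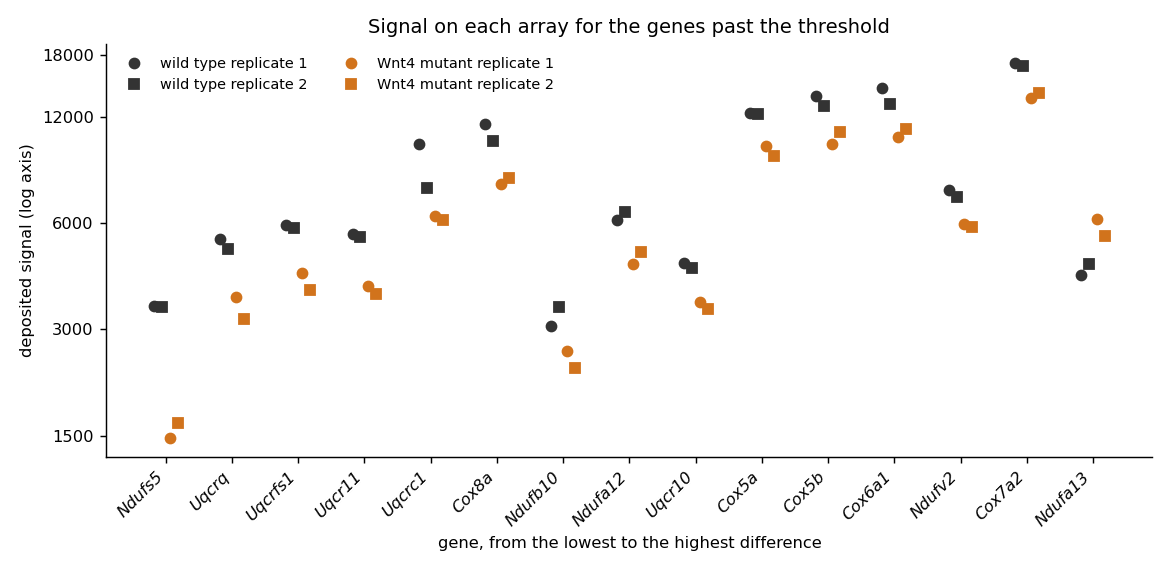
Deposited signal of the 15 called respiratory chain genes on each of the 4 arrays on a log axis, ordered by difference, with wild type in black, the mutant in orange, circles for replicate 1 and squares for replicate 2. The mutant points lie below the wild-type points in 14 genes, furthest in Ndufs5 (1554 against 3492 on average), and above them in Ndufa13.

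In complex II, which is also an enzyme of the citric acid cycle, all 4 genes had both mutant arrays below. None passed limma's adjusted test, and all 4 were lower at an unadjusted p under 0.05, where 13.8% of all genes were. Sdha, the flavoprotein that oxidises succinate, read 4697 and 5106 in wild type and 4040 and 3867 in the mutant (log2 difference -0.31 ± 0.08, limma adjusted p = 0.0552). It lay just outside the threshold and was called under 4 alternatives. Sdhb, the iron-sulfur subunit, read 6704 and 6668 against 5689 and 5740, a separation with little spread within each group (-0.23, limma adjusted p = 0.10). The membrane anchors varied more between arrays. Sdhc read 4525 and 3913 against 3792 and 2936 (-0.33 ± 0.13, limma adjusted p = 0.155), and its further probe set, at 4158 and 3518 against 2900 and 2952, fell (-0.38, limma adjusted p = 0.0463). Sdhd read 5009 and 3880.5 against 3446 and 3765 (-0.29 ± 0.12, limma adjusted p = 0.187), with wild-type replicate 2 close to the mutant arrays. A dimmer probe set of Sdhd went the other way, at 0.31, and overlapped between groups. The dimmer tested probe set of Sdha had a difference of -0.09, and neither was called.

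Complex III showed the lowest median, -0.43 (a change of -25.9%), and 5 of its 8 genes fell at the representing probe set, where 5.82% of all genes did. The 5 include Uqcr10, which rose at a dimmer probe set. All 8 were below 0, and the groups overlapped only for Uqcrh. Uqcrq, a small subunit beside cytochrome b, read 5425 and 5068 in wild type and 3702.5 and 3203 in the mutant. It fell 1.52-fold (log2 difference -0.60 ± 0.10 (SE), limma adjusted p = 0.00665), second to Ndufs5 among the members. Uqcrfs1, the Rieske iron-sulfur protein that takes an electron from ubiquinol, read 5938 and 5803 against 4335 and 3880. With means of 5870 ± 95.6 (SD, n = 2) and 4107 ± 322 (n = 2), it fell 1.43-fold (-0.52 ± 0.09, limma adjusted p = 0.00844). Uqcr11, a further small subunit, read 5594 and 5484 against 3996 and 3790 and fell 1.42-fold (-0.51 ± 0.08, limma adjusted p = 0.00619). In these 3 genes the groups did not overlap, and Uqcrq varied most within each group. The representing probe set of Uqcrq ends in _s_at, and its call was lost without probe sets ending in _x_at or _s_at. Its dimmer tested probe sets, at -0.21 and -0.33, were not called. Uqcrfs1 and Uqcr11 were called under 14 of the 16 alternatives and Uqcrq under 12.

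The remaining complex III genes were less clear. Uqcrc1, a core protein on the matrix side, read 10104 and 7575 in wild type and 6311 and 6148 in the mutant (log2 difference -0.49 ± 0.13, 1.40-fold, limma adjusted p = 0.0463). Its wild-type arrays differed from each other by more than wild-type replicate 2 differed from the mutant, and 9 of the 16 alternatives did not call it. The other core protein, Uqcrc2, had a difference of -0.29 (limma adjusted p = 0.0572). Uqcr10, another small subunit, read 4619 and 4493 against 3582 and 3432 at its brightest probe set, where it fell 1.30-fold (-0.38 ± 0.08, limma adjusted p = 0.0229). Uqcrb had a difference of -0.32 (limma adjusted p = 0.0619), and the hinge protein Uqcrh one of -0.12 (limma adjusted p = 0.457).

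In complex IV, 5 of the 15 tested genes fell, where 5.82% of all genes did. All 5 were genes expressed in most tissues. Of the 10 such ubiquitous genes, 8 had both mutant arrays below, with a median of -0.28. In the brightest 10%, where 8.78% fell, were 9 of the 10 and 0 of the 5 tested tissue-restricted genes. The ubiquitous and tissue-restricted genes were therefore not measured at the same level. Cox8a, the smallest subunit, read 11496 and 10292 in wild type and 7767 and 8045 in the mutant and fell 1.38-fold (log2 difference -0.46 ± 0.08, limma adjusted p = 0.0120). Cox5a, at 12331 and 12271 against 9973 and 9292, fell 1.28-fold (-0.35 ± 0.08, limma adjusted p = 0.0254). Both read lower on each mutant array than on either wild-type array. Cox5b, the zinc-binding subunit on the matrix side, read 13818 and 12874 against 10061 and 10888 (-0.35, 1.27-fold, limma adjusted p = 0.0327). Cox6a1, the form of subunit Cox6a found in most tissues, read 14551 and 13045 against 10578 and 11079 (-0.35, 1.27-fold, limma adjusted p = 0.0365). Cox7a2 read 17126 and 16719 against 13627 and 14034 (-0.29, 1.22-fold, limma adjusted p = 0.0429). None of these overlapped between groups, and 43.9% of the brightest 10% of genes had both mutant arrays below.

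These signals lie where other genes of the same brightness were also lower in the mutant. Cox5a, Cox5b, Cox6a1 and Cox7a2 were no longer called after quantile or cyclic loess normalization, while Cox8a was. The median of the ubiquitous genes was then -0.11 and -0.17. Cox4i1, the ubiquitous form of the regulatory subunit Cox4, read 12454 and 12074 in wild type and 9691 and 10626 in the mutant (log2 difference -0.27, limma adjusted p = 0.0707). Cox6c (-0.28, limma adjusted p = 0.0529) and Cox6b1 (-0.20, limma adjusted p = 0.132) did not pass either, although a further probe set of Cox6c fell (-0.39, limma adjusted p = 0.0487). The probe set that represents Cox7c was dim, at 95 to 124 on the 4 arrays, and overlapped between groups.

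Tissue-restricted forms of complex IV subunits showed no common direction. Of 7 such genes 5 were tested. At their representing probe sets none passed limma's test with or without adjustment at 0.05, and 4 overlapped between groups. Their median was -0.01, which turned above 0 under 5 of the alternatives. The heart and skeletal muscle form Cox6a2 read 176 and 315 in wild type and 253 and 303 in the mutant (log2 difference 0.22 ± 0.28, limma adjusted p = 0.693). The muscle form Cox7a1 read 238 and 146 against 142 and 152 (-0.31 ± 0.29, limma adjusted p = 0.560), with wild-type replicate 1 alone high. The muscle form Cox8b, below the filter, read 20.7 and 12.8 against 35.3 and 49.3. The skeletal muscle markers that rose are given above, and their part in these values was not tested. The lung form Cox4i2 read 141 and 184 against 148 and 153 (-0.09 ± 0.26, limma adjusted p = 0.871). Of the testis forms, Cox6b2 read 1110 and 997 against 1218 and 1152, with both mutant arrays above (0.17 ± 0.11, limma adjusted p = 0.394). Cox8c overlapped at its representing probe set (783 and 958 against 796 and 929). Its dimmer probe set did not, at 162 and 175 against 243 and 259 (0.53, limma unadjusted p = 0.0384, adjusted p = 0.167). Cox7b2 was below the filter at 12.6 to 45.9. Cox7a2l, a relative of Cox7a2 that takes part in supercomplexes, had differences of 0.18, -0.17 and 0.14 at its 3 probe sets, none of them called.

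Probe sets of the same gene mostly had the same sign. Over the 115 tested member probe sets 24 fell and 2 rose, where 5.39% and 5.41% of all probe sets did. Of 35 genes with more than 1 tested probe set, 26 were below 0 at each of them and 9 were mixed. For 8 genes, single-probe-set genes included, every tested probe set fell. Cox5b was called at 4 of its 5, which ranged from -0.72 to -0.33. The widest split was in Uqcr10: a dim probe set ending in _x_at read 414 and 198 in wild type and 735 and 919 in the mutant and rose 2.77-fold (log2 difference 1.47 ± 0.30, limma adjusted p = 0.0181). A further one, below the filter, read 14.6 and 5.56 against 385 and 358. So the bright probe set of Uqcr10 was lower and both dim ones were higher on each mutant array, and the gene has no single direction here. Ndufa12 had 2 of 4 probe sets called lower and a dim one at 0.17. The mixed probe sets of Sdhd (-0.29 and 0.31), Ndufc2 (-0.19 to 0.32) and Cox8c (-0.01 and 0.53) were not called.

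**Figure D4:**
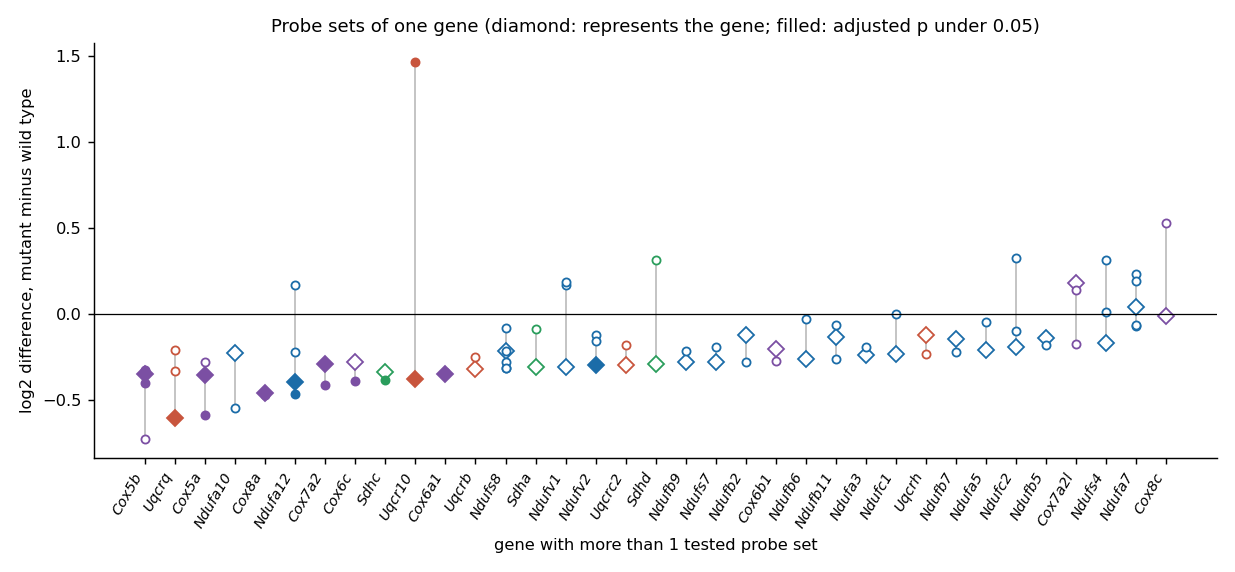
Log2 difference, mutant minus wild type, at each tested probe set of the member genes with more than 1 (x axis), 1 point per probe set, joined by a line, with a diamond for the probe set that represents the gene and filled symbols past the limma threshold. Most genes stay below 0, while Uqcr10 reaches from -0.38 to 1.47.

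Genes that work beside the chain differed in how they compared. Mobile cytochrome c and subunits outside the symbol rule fell in 3 of 4: Cycs, the somatic cytochrome c, read 11357 and 11886 in wild type and 8157 and 8561 in the mutant (log2 difference -0.47, limma adjusted p = 0.00732). Cyc1, the haem-bearing cytochrome c1 of complex III, had a difference of -0.36 (limma adjusted p = 0.0315). Ndufa4l2, a relative of Ndufa4 known as a hypoxia-responsive gene, read 595 and 536 against 301 and 339 (-0.79, limma adjusted p = 0.0174). ATP synthase genes fell in 9 of 18, all 18 were below 0, and the median was -0.28. Of these, Atp5o read 11160 and 10352 against 8036 and 8372.5 (-0.39, limma adjusted p = 0.0192). Citric acid cycle genes fell in 4 of 12 (median -0.25). Over all genes 5.82% fell and 50.0% were below 0. Idh3a, a catalytic subunit of isocitrate dehydrogenase, read 3347 and 3424 against 2107 and 2191 (-0.65, limma adjusted p = 0.00260). All 18 ATP synthase genes were bright as well. At signals of 8176 to 11569 the median was -0.28 for 8 of them and -0.11 for other genes, and above that it was -0.33 for 4 and -0.22 for other genes.

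Assembly factors, which build the complexes but are not part of them, had no call lower by limma among 44 tested, and 2 rose, where 5.82% of all genes fell and 6.70% rose. At an unadjusted p under 0.05, 7 were lower and 2 higher, where 13.8% of all genes were lower and 14.6% higher. The shares of the assembly factors were near or below those of all genes, and their median was -0.07. Acad9, a complex I assembly factor, read 285 and 327 in wild type and 773 and 708 in the mutant and rose 2.35-fold (log2 difference 1.23, limma adjusted p = 0.00205). Ndufaf1, another, read 753 and 822 against 1237 and 1150 and rose 1.51-fold (0.59, limma adjusted p = 0.0147). Both had each mutant array above. Only 4 of the 44 were in the brightest 10%, so these genes were not measured at the level of the subunits. Mitochondrial translation genes fell in 1 of 11 (median -0.05), where 5.82% of all genes fell, and 0 of the 11 were in the brightest 10%. Mto1, a tRNA-modifying enzyme, was the gene that fell (762 and 538 against 314 and 296, limma adjusted p = 0.0122).

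Among 17 regulators of mitochondrial biogenesis, 1 fell and none rose by limma's adjusted test, a share near the 5.82% of all genes. At an unadjusted p under 0.05, 7 were lower and 0 higher, where 13.8% and 14.6% of all genes were, and the median was -0.21. The gene that fell was Esrrg, an orphan nuclear receptor that drives genes of oxidative metabolism, at 669 and 676 in wild type and 268 and 225 in the mutant. Esrrg fell 2.63-fold (log2 difference -1.40 ± 0.16 (SE), limma adjusted p = 0.00154), with both mutant arrays far below. Its coactivator Ppargc1a read 410 and 380 against 238 and 283 (-0.58, limma adjusted p = 0.0849), and the related receptor Esrra had a difference of -0.44 (limma adjusted p = 0.125). Neither passed the test. Nor did Nrf1, which encodes NRF-1 (-0.15, limma adjusted p = 0.568), or Gabpa, which encodes the DNA-binding subunit of GABP (0.20, limma adjusted p = 0.256).

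**Figure D5:**
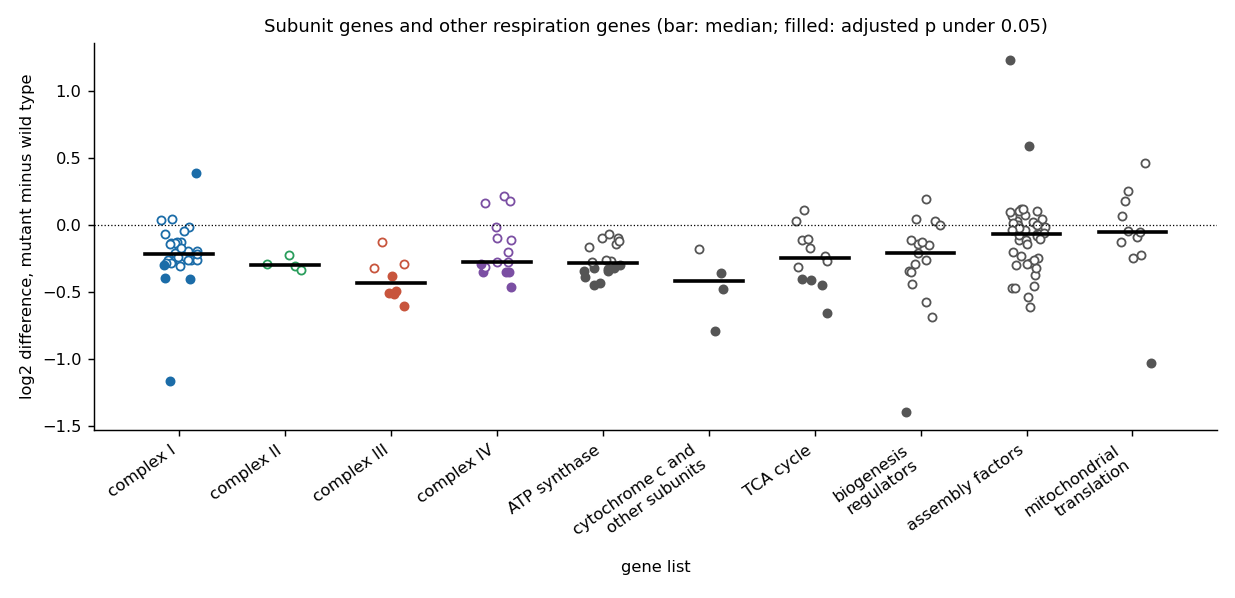
Log2 difference, mutant minus wild type, of the tested genes of each respiration list beside the respiratory chain genes by complex, 1 point per gene, filled where past the limma threshold, with a bar at each median. The medians of the lists run from -0.42 for cytochrome c and other subunits to -0.05 for mitochondrial translation, with ATP synthase at -0.28 and assembly factors at -0.07.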

How the data were processed

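Expression was measured on 4 arrays. The values are signal intensity per probe set on a linear scale, as deposited by the authors. GCOS is named, without a version, in the submitters' processing notes; how the probes were summarised and scaled is not given in the sources used here. With 2% of values trimmed at each end, the mean signal was 499.97 to 499.99 on the arrays, a shared scale. Array medians were 137.5 to 159.3. Precision is limited by the number of arrays: the smallest two-sided p of an exact 2 against 2 test is 0.33.

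Signals were transformed to log2(signal + 16). Control probe sets and the lowest 40% by mean were left out, which left a lowest mean signal of 94.2. Groups were compared by limma 3.58.1 under R 4.3.3, using lmFit and a trended eBayes, with two-sided p-values adjusted by Benjamini-Hochberg over all tested probe sets. The procedure was run on simulated data with a common spread for all probe sets and no drift with brightness. That run cannot speak to the dependence on scaling. Symbols came from the platform annotation, with 34958 probe sets of a single gene, 932 of several and 9211 not listed and left unnamed here. Those of all 63 members matched RefSeq by identifier. The members, lists and tests were chosen with earlier results of these data known. Genes were named by rule: members with a called probe set, the 3 largest differences per complex, complex IV isoforms, genes with discordant probe sets, and up to 3 genes per list with the smallest p; others were chosen after their values were seen. Alternatives are given in the closing section. Same-numbered arrays did not deviate together (r = -0.017 over probe sets), so numbers were not used as pairs.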

Additional observations from a re-analysis of the deposited data

How the results depend on the processing

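The limits are the 2 arrays per group, the confounding of genotype with stated strain and pool size, and the unknown summary algorithm. In this section, a leave-one-out fit with a lone array assumes that it varies like the other group. The medians of all members and of complexes I to IV kept their sign under each alternative run. That of the tissue-restricted complex IV genes did not, at -0.153 to 0.169.

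Respiratory chain genes called numbered 15 in the report's setting, 4 with arrays centred on their medians, 6 without a filter, 1 without an intensity trend, 9 with quantile normalization and 9 with cyclic loess (added after seeing the data). Leaving out 1 array gave 1 to 23. Probe sets called numbered 26, then 6, 12, 1, 17 and 15 in the same order, 17 with the replicate number as a block, and 3 to 43 without 1 array. With the block 10 genes were called, the calls lost being Cox5a, Cox5b, Cox6a1, Cox7a2 and Ndufv2. Other respiration genes called numbered 20, then 7, 8, 2, 13 and 12, and 5 to 22 without 1 array. Pseudocounts of 1 and 64 kept all 15 member calls. Without probe sets ending in _x_at or _s_at 12 of the 15 were kept, the calls lost being Ndufa12, Ndufa13 and Uqcrq.

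The members' median difference of -0.255 became -0.239 centred, -0.175 quantile, -0.175 loess, -0.194 as the mean over probe sets, -0.234 without _x_at and _s_at, and -0.251 to -0.224 without 1 array. For complex I, at -0.211, the values were -0.195, -0.176, -0.163, -0.150, -0.193 and -0.228 to -0.188, and -0.218 without a filter. Complex II, at -0.299, moved to -0.211 as the mean over probe sets and -0.343 to -0.225 without 1 array. Complex III, at -0.433, was -0.382 quantile, -0.374 loess, -0.386 as the mean over probe sets, -0.348 without _x_at and _s_at, and -0.468 to -0.351 without 1 array. Complex IV, at -0.273, was -0.087 quantile, -0.162 loess, -0.313 as the mean over probe sets and -0.302 to -0.247 without 1 array. The Wnt4 difference was -2.678 to -2.125 without 1 array.

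Of the 60 members 43 kept their sign under every alternative that tested them and 17 turned under at least 1, in some because another probe set came to represent the gene. Ndufa8 turned under 5 and Ndufv3 under 3, both bright genes with a difference near 0, and Ndufb2 under 2. Values follow for the named genes. As the mean over probe sets Uqcr10 was 1.669, Sdhd 0.012 and Cox8c 0.260. Cox8c was 0.005 centred, 0.132 without wild-type replicate 2 and 0.098 without mutant replicate 1. With 1 array left out, Cox8c ranged from -0.153 to 0.132, Cox4i2 from -0.265 to 0.081, Cox6a2 from -0.177 to 0.614 and Cox7a1 from -0.637 to 0.011; the signs turned without wild-type replicate 2 for Cox4i2 and without wild-type replicate 1 for Cox6a2 and Cox7a1. The cause of these changes was not tested.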
